A study of Mus musculus with 36 samples.

Results

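The Hox genes of the HoxA, HoxB, HoxC and HoxD clusters were followed in the progenitor cells of the mouse kidney. The gene symbol alone decides which genes belong, and 38 Hox genes were taken of the 22761 genes in the deposited table: 10 of HoxA, 10 of HoxB, 9 of HoxC and 9 of HoxD. The 36 RNA sequencing libraries were 4 for each of 9 groups. Nephron progenitors (NP), stromal progenitors (SP) and ureteric bud cells (UB) were sorted from CD1 kidneys of E11.5 and of E12.5 embryos (ex-fetu cells), and their counterparts iNP, iSP and iUB were differentiated from mouse embryonic stem cells (mESC). NP and iNP were the cells with high ITGA8 and low PDGFRA, SP and iSP those with low ITGA8 and high PDGFRA, with CD31, EpCAM and RET negative. UB cells were RET and EpCAM positive, and iUB cells EpCAM and mCherry positive. iNP and iSP came from the E14 mESC line after treatment with CHIR, Activin, BMP4, retinoic acid and FGF9. iUB cells, called eUB in the study's text, came from an mESC line with an mCherry reporter, given as Sox9-mCherry for the sequenced and sorted samples and as Sox8-mCherry in other parts of the study's text, in which retinoic acid, FGF9, CHIR and GDNF were among the factors used. The labels give no mutation for any group. Each ex-fetu library pooled kidneys from the embryos of 1 mouse, and each mESC-derived library embryoid bodies of 1 batch. An error given with a level or a share is the SD between such pools. One given with a log2 fold change is a standard error from the model fitted to them. Levels are in normalised CPM, that is, CPM scaled by the authors with edgeR factors, CPM being the reads of a gene per M (mega) reads of its library.

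Hox genes encode homeodomain transcription factors that specify position along the body axis. Genes of the same number in different clusters are paralogues, and those with low numbers lie at the 3' end of a cluster and are activated early and towards the head, while those with high numbers lie at the 5' end and are activated late and towards the tail. In the kidney, the Hox11 paralogues of the metanephric mesenchyme act with *Pax2* and *Eya1* upstream of *Six2* and *Gdnf*, the Hox10 paralogues act in the stroma, and *Hoxb7* is the gene whose regulatory DNA is widely used to mark the Wolffian duct and ureteric bud. In the GRCm38 assembly, the HoxA genes lay on the minus strand from chr6:52162417-52164831 to chr6:52257694-52260880, and the other clusters on the plus strand: HoxB on chromosome 11, HoxC on chromosome 15 and HoxD on chromosome 2.

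The libraries held 13 to 52.5 M reads on genes, and 3 reads, the smallest level taken as detected, stood for 0.0605 to 0.223 normalised CPM. Intervals and limits of this kind cover counting error only. The summed level of 10 NP markers was 1777 to 2015 in E11.5 NP and 732 to 1186 in iNP libraries, that of 10 SP markers 2899 to 4697 in E11.5 SP and 1731 to 1847 in iSP, and that of 10 UB markers 4953 to 5324 in E11.5 UB and 3300 to 3684 in iUB, with no defining marker at 0 in its own cell type. Against E11.5 cells of the same type, 8 of the 10 NP markers were lower and 1 higher in iNP. Of the 10 SP markers 6 were lower and 2 higher in iSP, and of the 10 UB markers 5 were lower and 1 higher in iUB. SP markers summed to 323 to 354 in E11.5 NP and 423 to 592 in iNP, with 6 of the 9 tested higher and 2 lower in iNP. Endothelial markers summed to 13.1 to 39.1 in E11.5 NP and 59.3 to 99.5 in iNP, erythroid markers to 84.0 to 1573 in E11.5 SP and at most 0.0966 in iSP, and macrophage markers to 61.8 to 106 in E11.5 UB and 0.371 to 0.601 in iUB. Replicate 1 of E12.5 UB stood apart: its NP markers summed to 566 against 57.5 to 89.9 in the other 3 libraries, and its SP markers to 409 against 21.2 to 42.5. Replicates 1 and 2 of E11.5 SP stood apart by markers of limb and hindlimb mesenchyme, which summed to 443 and 402 in them and to 200 (199.5) and 121 in replicates 3 and 4. Replicate 1 of E12.5 NP and of E12.5 SP stood apart by *Hspa1a*, *Hspa1b*, *Fos* and *Jun*, stress response genes picked after their values were seen, which summed to 1131 against 134 to 243 in the other E12.5 NP libraries and to 3440 (3439.9) against 427 to 604 in the other E12.5 SP libraries. The part of these markers in the Hox differences below was not tested, and the counts of called Hox genes that rest on those libraries are given with and without them. A gene that reached 1 in the libraries of only 1 of the groups compared entered the test through the group where it is high and so had to differ. For such genes values are given with no p, and their calls support nothing. In such bulk samples, fewer cells of a type and less RNA per cell cannot be told apart.

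Hox genes were expressed in every group. A mean level of at least 1 was reached by 34 of the 38 genes in E11.5 NP, E12.5 NP, iNP and E11.5 SP, by 33 in E12.5 SP and E12.5 UB, by 37 in iSP, by 29 in E11.5 UB and by 22 in iUB. Without replicate 1 of E12.5 UB the number for that group was 28. At or under 3 reads in all 4 libraries of a group were 8 genes in iUB and at most 4 in any other group, and *Hoxc11*, *Hoxc12* and *Hoxd12* had no read in iUB. *Hoxc12* and *Hoxc13*, genes of the 5' end of HoxC known from hair and nail, were close to the limit of detection in nearly all groups. *Hoxc12* measured 2.17, 0.788, 1.48 and 1.59 in the iSP libraries, while its mean was at most 0.0691 in the NP groups. The plot of levels by library shows a block of 5' genes that is high in NP and SP and low in UB cells, and a block of HoxB genes that is high in UB cells.

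**Figure D1:**
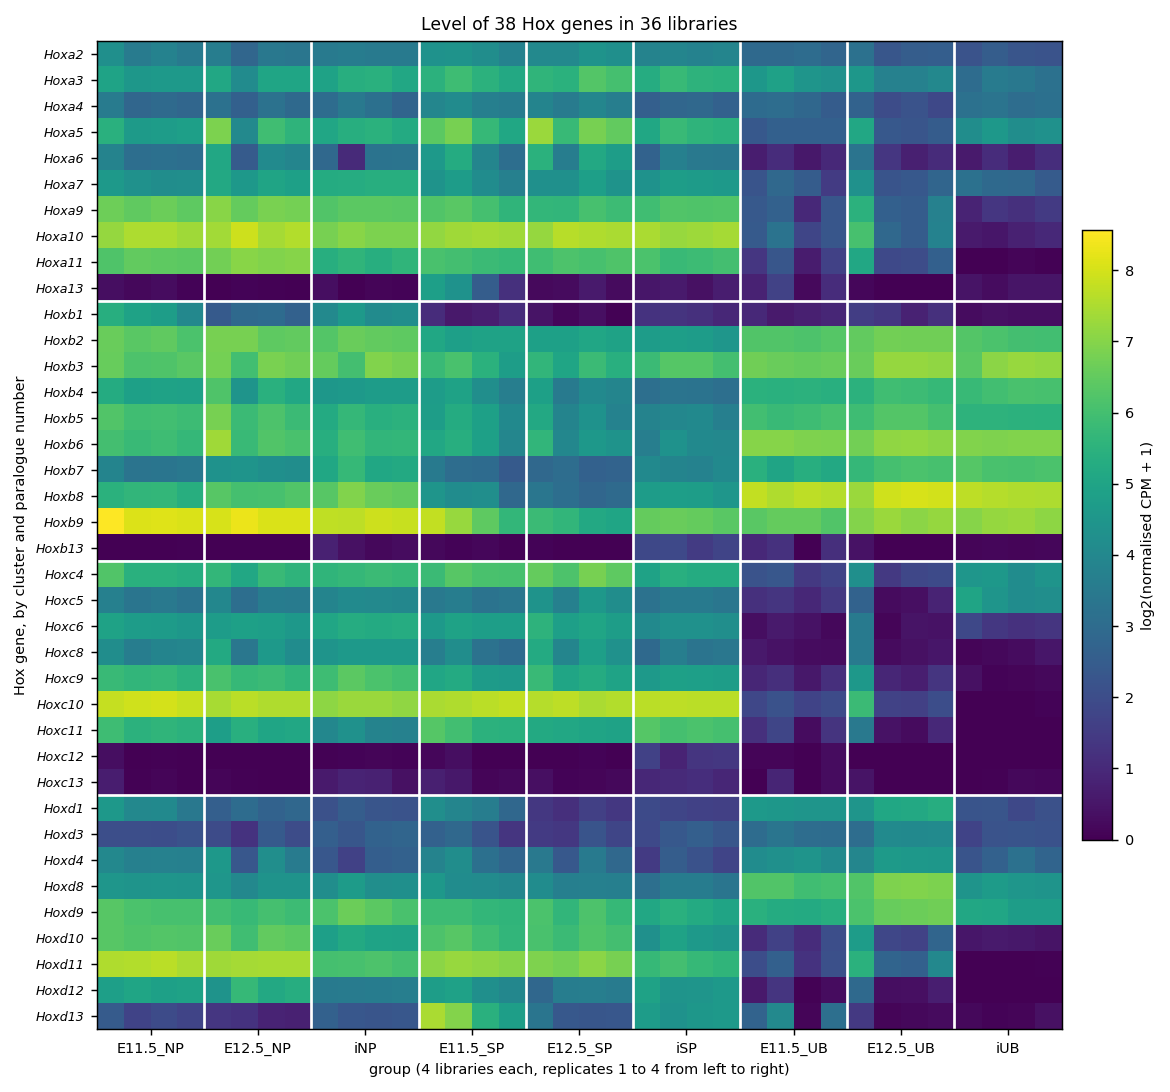
Level of each of the 38 Hox genes, as log2(normalised CPM + 1), in each of the 36 libraries; rows are genes ordered by cluster and number, columns are libraries ordered by group. *Hoxa10* and *Hoxc10* average 167 and 238 in E11.5 NP and 0.667 and 0.0177 in iUB, and *Hoxb8* averages 201 in E11.5 UB and 15.5 in E11.5 SP.

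To compare genes of different length, levels were divided by the exon length of the gene in kilobases and summed over the 38 genes. HoxB supplied 75.2% ± 2.45 (SD, n = 4) of the summed level per kb in E11.5 UB, 33.3% ± 1.997 in E11.5 NP and 17.0% ± 3.93 in E11.5 SP. Its share was 83.2% ± 1.36 in iUB, 40.3% ± 0.560 in iNP and 19.2% ± 0.745 in iSP, so that the order UB, NP, SP of the ex-fetu cells was also that of the mESC-derived cells. HoxD supplied 19.8% ± 0.522, 24.1% ± 2.25 and 18.3% ± 1.29 in E11.5 NP, SP and UB. In iNP, iSP and iUB it supplied 13.9% ± 0.759, 13.7% ± 0.611 and 6.87% ± 0.463. The libraries of each mESC-derived group were all below those of its E11.5 group in the HoxD share. The paralogues 9 to 13 supplied 67.7% ± 2.60 in E11.5 NP and 54.7% ± 0.986 in iNP, and 66.3% ± 4.01 in E11.5 SP and 68.8% ± 2.91 in iSP.

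**Figure D2:**
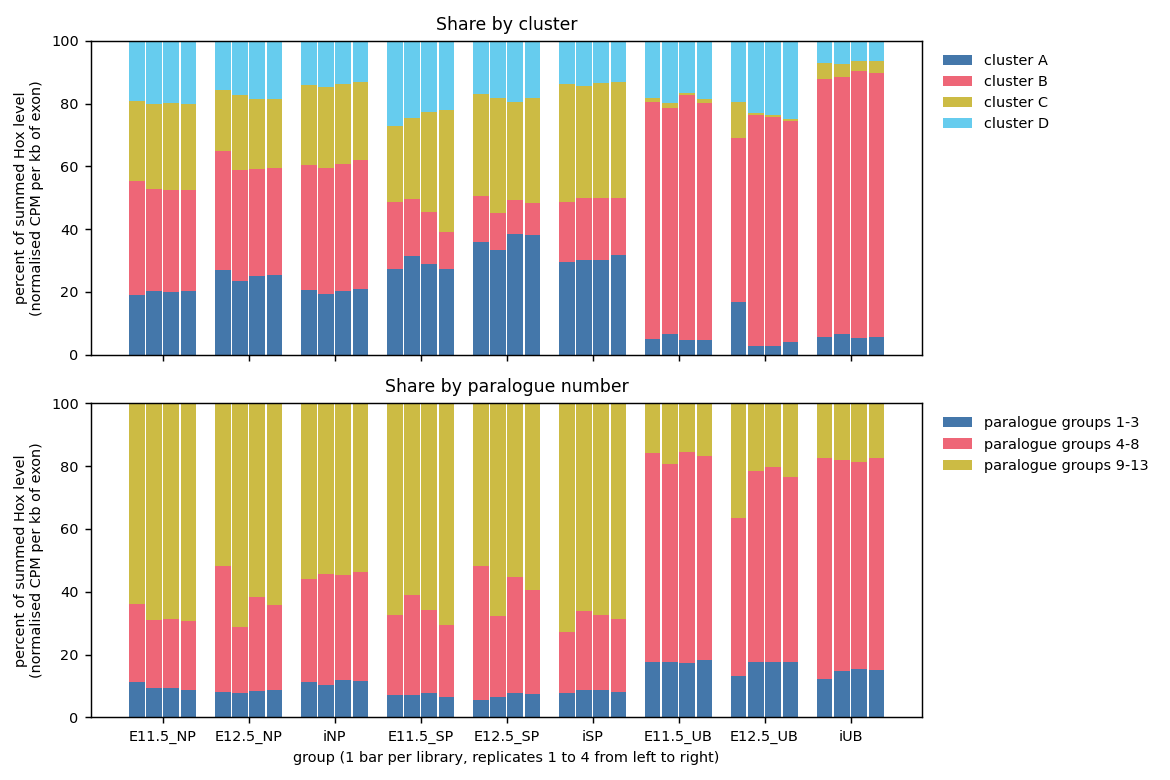
Percent of the summed Hox level per kb of exon that comes from each cluster (upper panel) and from each class of paralogues (lower panel); each bar is 1 library. HoxB makes up 75.2% on average in E11.5 UB and 83.2% in iUB, and HoxD 18.3% and 6.87%.

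In the first comparison, NP and SP cells of the same stage were set against each other. Most HoxB genes were higher in NP cells, and *Hoxa3*, *Hoxa4* and *Hoxd13* higher in SP cells, at both stages. Fold changes are on the scale of log2(level + 1), on which they are also ordered, and on which genes of low level change less than by their ratio. With limma on this scale, a Hox gene was called when its p-value, adjusted over all genes tested by the Benjamini-Hochberg method, was under 0.05. At E11.5, 18 of the 35 Hox genes tested were called between NP and SP, 13 higher and 5 lower in NP. The share called was 43.1% of all genes, 21% higher and 22.2% lower. Of the 9 HoxB genes tested, 7 were higher in NP and none lower. *Hoxb1*, which specifies a segment of the hindbrain and responds early to retinoic acid, measured 39.8, 29.2, 26.0 and 15.1 in E11.5 NP and 0.835 ± 0.323 in E11.5 SP libraries (log2 fold change 3.90 ± 0.26, adjusted p = 3.58e-06). *Hoxb9*, a gene of thoracic axial pattern, measured 376, 274, 281 and 265 in NP and 217, 149, 86.2 and 50.4 in SP (1.43 ± 0.38, adjusted p = 0.0128). Every NP library was above every SP library for both genes. *Hoxb8*, *Hoxb2* and *Hoxb5* were also higher in NP, with log2 fold changes of 1.60 for *Hoxb8*, 1.44 for *Hoxb2* and 1.25 for *Hoxb5* (adjusted p 1.09e-05 to 0.00204). Lower in NP were *Hoxd13*, *Hoxa13*, *Hoxa5*, *Hoxa3* and *Hoxa4*, the last 3 with log2 fold changes of -1.08 for *Hoxa5*, -0.84 for *Hoxa3* and -0.79 for *Hoxa4*, and *Hoxa5* overlapped between the groups. *Hoxa13* reached 1 in SP only, and without it 17 of 34 genes were called. *Hoxd13* differed by -4.19 and *Hoxa13* by -3.01, and by -3.14 for *Hoxd13* and -1.65 for *Hoxa13* without replicates 1 and 2 of E11.5 SP. *Hoxb7* did not pass the test (0.49 ± 0.23, adjusted p = 0.111).

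The Hox10 and Hox11 genes differed far less between NP and SP. *Hoxd11*, a Hox11 gene of the metanephric mesenchyme at chr2:74679557-74687016, measured 185, 188, 201 and 175 in E11.5 NP and 132, 150.2, 139 and 127 in E11.5 SP libraries (0.45 ± 0.083, adjusted p = 0.0019). *Hoxa11* (0.47 ± 0.11, adjusted p = 0.00534), *Hoxa9* (0.49 ± 0.1552, adjusted p = 0.0279), *Hoxc9* (0.76 ± 0.14, adjusted p = 0.00224), *Hoxd9* (0.41 ± 0.1005, adjusted p = 0.00843) and *Hoxc10* (0.29 ± 0.092, adjusted p = 0.0301) were higher in NP as well. *Hoxa10*, *Hoxd10* and *Hoxc11* were not called, with log2 fold changes of 0.077 for *Hoxa10*, 0.2435 for *Hoxd10* and -0.1573 for *Hoxc11* (adjusted p 0.195 to 0.548). With replicates 1 and 2 of E11.5 SP left out, 23 Hox genes were called (19 higher, 4 lower; 46.9% of all genes), 16 of them also called with all libraries, and *Hoxa5* and *Hoxc10* were no longer called. *Hoxb7* (0.78 ± 0.21, adjusted p = 0.0167) and *Hoxd10* (0.48 ± 0.11, adjusted p = 0.00651) were then called higher in NP.

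At E12.5, 20 of 34 Hox genes were called between NP and SP, 15 higher and 5 lower in NP (34.8% of all genes, 17% higher and 17.8% lower). *Hoxb1* reached 1 in NP only, and without it 19 of 33 were called, the 8 HoxB genes among them all higher in NP. *Hoxb9* measured 260.0, 313, 270.5 and 269 in E12.5 NP and 56.5, 48.5, 34.8 and 31.5 in E12.5 SP (2.71 ± 0.19, adjusted p = 4.63e-06), and *Hoxb8* measured 78.8, 64.9, 65.5 and 74.4 and 9.37, 7.56, 6.12 and 6.84 (3.09 ± 0.15, adjusted p = 6.6e-07). Neither gene overlapped between the groups. The next largest were 2.50 for *Hoxb1*, 1.86 for *Hoxb5* and 1.74 for *Hoxb6* among the higher genes (adjusted p 0.00163 to 0.00836 for *Hoxb5* and *Hoxb6*), and -1.51 for *Hoxd13*, -1.012 for *Hoxa3*, -0.95 for *Hoxc4*, -0.87 for *Hoxa2* and -0.77 for *Hoxa4* among the lower ones (0.00132 to 0.0151). *Hoxb7* was higher in NP (1.48 ± 0.14, adjusted p = 3.36e-05), as were *Hoxa9*, *Hoxa11* and *Hoxd11*, at 0.98 for *Hoxa9*, 0.84 for *Hoxa11* and 0.52 for *Hoxd11*, whereas *Hoxc9*, *Hoxd9*, *Hoxa10*, *Hoxc10*, *Hoxd10* and *Hoxc11* were not called. The NP and SP libraries of the same number deviated together at this stage, and 27 Hox genes were called once the replicate number was added as a block (19 higher, 8 lower; 57.8% of all genes), the 20 above and 7 others. Among the 7 were *Hoxc9* (0.54 ± 0.088, adjusted p = 0.00173) and *Hoxd10* (0.31 ± 0.083, adjusted p = 0.0153), both higher in NP. With replicate 1 of both groups left out, the libraries with the high stress gene sums, 22 were called (16 higher, 6 lower; 43.8% of all genes).

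UB cells had lower HoxC genes, lower levels of most HoxA genes and lower *Hoxd10*, *Hoxd11* and *Hoxd12* than the mesenchymal cells, and higher *Hoxd1*, *Hoxd3* and *Hoxd8*. HoxB went both ways against NP, with 5 genes higher, 1 lower and 2 not called in E11.5 UB apart from *Hoxb1*, whereas against SP 7 of the 8 tested were higher and none lower. At E11.5, 29 of 34 Hox genes tested were called between UB and NP (9 higher and 20 lower in UB; 60.2% of all genes, 28.7% higher and 31.5% lower), and 33 of 34 between UB and SP (11 higher and 22 lower; 53.6% of all genes, 26.8% higher and 26.7% lower). Apart from *Hoxc6* and *Hoxc8*, the 5 HoxC genes tested were lower in UB than in either mesenchymal group, and of HoxA 7 of 9 were lower than in NP and 10 of 10 lower than in SP. Taken without sign, the median log2 fold change between UB and NP was 2.09 for the Hox genes, 1.80 without the genes named next, and 0.34 for all genes. *Hoxc6* and *Hoxc8* in both comparisons, and *Hoxb1* against NP, reached 1 in the mesenchymal cells only, and without them 26 of 31 and 31 of 32 were called. Without replicates 1 and 2 of E11.5 SP, 32 Hox genes were called between UB and SP (58.3% of all genes), and *Hoxa13* was not.

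*Hoxc10*, a Hox10 paralogue at chr15:102966796-102971893, measured 224, 243, 257 and 229 in E11.5 NP, 175, 184, 201 and 219.7 in E11.5 SP and 2.55, 3.42, 2.27 and 2.88 in E11.5 UB libraries. Its log2 fold change in UB was -5.99 ± 0.0986, adjusted p = 4.22e-13 against NP and -5.70 ± 0.12, adjusted p = 1.07e-09 against SP, and no UB library reached a level found in the mesenchymal cells. *Hoxd11* measured 3.10, 5.19, 1.40 and 3.27 in E11.5 UB, 57.8-fold below NP by the ratio of means (-5.55 ± 0.21, adjusted p = 4.14e-10). Against NP, the next largest were -4.96 for *Hoxa10*, -4.89 for *Hoxa11* and -4.79 for *Hoxd10* (adjusted p 5.01e-10 to 8.85e-09), followed by -4.71 for *Hoxc9*, -4.50 for *Hoxc11* and -4.47 for *Hoxa9*. Against SP, the 5 largest decreases were -5.70 for *Hoxc10*, -5.10 for *Hoxd11*, -4.88 for *Hoxa10*, -4.66 for *Hoxc11* and -4.54 for *Hoxd10* (adjusted p 1.07e-09 to 4.9e-07), and *Hoxa11*, *Hoxa9* and *Hoxc9* followed at -4.42 for *Hoxa11*, -3.98 for *Hoxa9* and -3.95 for *Hoxc9*.

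The Hox9 paralogues were not alike in UB cells. *Hoxa9* measured 4.20, 5.31, 0.982 and 3.95 and *Hoxc9* 0.904, 1.21, 0.453 and 1.24, while *Hoxd9* measured 42.6, 37.1, 36.5 and 40.6 and *Hoxb9* 80.7, 90.8, 91.5 and 75.0. The log2 fold change of *Hoxd9* in UB was -0.83 ± 0.081, adjusted p = 2.26e-06 against NP and -0.42 ± 0.0981, adjusted p = 0.00436 against SP. For *Hoxb9* it was -1.80 ± 0.11, adjusted p = 2.43e-08 against NP and -0.37 ± 0.36, adjusted p = 0.423 against SP, and the SP libraries, at 217, 149, 86.2 and 50.4, lay on both sides of the UB libraries.

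*Hoxb8* was the Hox gene with the largest increase in UB at E11.5. It measured 215, 187, 206 and 196 in E11.5 UB, 43.4, 48.3, 49.8 and 40.2 in E11.5 NP and 21.2, 16.8, 17.6 and 6.35 in E11.5 SP libraries (2.12 ± 0.078, adjusted p = 2.53e-10 against NP; 3.73 ± 0.29, adjusted p = 1.81e-06 against SP). The groups did not overlap, and the SP libraries were the lowest. *Hoxb7*, at chr11:96286623-96290162, measured 42.0, 31.0, 40.3 and 35.1 in E11.5 UB, 13.6, 8.86, 8.998 and 9.64 in E11.5 NP and 10.4, 7.29, 6.87 and 4.37 in E11.5 SP. Its log2 fold change was 1.77 ± 0.14, adjusted p = 3.12e-07 against NP and 2.25 ± 0.21, adjusted p = 6.66e-06 against SP. Every UB library was above every NP and SP library, but per kb of exon *Hoxb7* averaged 24.05 in UB, below *Hoxb8* at 76.3 and *Hoxb6* at 62.4. *Hoxd8* measured 73.7, 75.0, 59.7 and 64.0 in UB against means of 20.9 in NP and 17.7 in SP (1.65 ± 0.084, adjusted p = 5.31e-09 against NP; 1.90 ± 0.14, adjusted p = 1.2e-06 against SP). *Hoxb6* was also higher in UB (1.10 against NP and 2.13 against SP), as were *Hoxd3* against NP (1.03 ± 0.11, adjusted p = 5.59e-06) and *Hoxb2* against SP (1.28 ± 0.089, adjusted p = 7.55e-07).

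The 250 bases before a RefSeq start of 4 genes of the HoxD cluster are shown here, since neighbours of this cluster went in opposite directions: *Hoxd8* was higher in UB cells, *Hoxd10* and *Hoxd11* were higher in the mesenchymal cells, and *Hoxd4*, as given further on, was lower in iNP, iSP and iUB than in their E11.5 counterparts. The sequences are from RefSeq on GRCm38.p6, plus strand of chromosome 2, 5' to 3', at chr2:74721728-74721977, chr2:74704365-74704614, chr2:74691641-74691890 and chr2:74682073-74682322. Capitals mark AGGTCA or its reverse complement TGACCT, the core hexamer bound by retinoic acid receptors. Both strands were searched.
Hoxd4: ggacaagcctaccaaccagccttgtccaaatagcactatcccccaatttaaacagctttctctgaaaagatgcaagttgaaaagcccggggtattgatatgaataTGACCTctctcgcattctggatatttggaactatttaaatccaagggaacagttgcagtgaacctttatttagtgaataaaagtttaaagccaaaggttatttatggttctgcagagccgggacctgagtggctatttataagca
Hoxd8: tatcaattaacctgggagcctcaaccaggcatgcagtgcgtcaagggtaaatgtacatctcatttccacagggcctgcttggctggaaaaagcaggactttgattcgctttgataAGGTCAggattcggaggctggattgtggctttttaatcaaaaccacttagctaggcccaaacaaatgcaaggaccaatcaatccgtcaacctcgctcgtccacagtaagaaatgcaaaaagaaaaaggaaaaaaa
Hoxd10: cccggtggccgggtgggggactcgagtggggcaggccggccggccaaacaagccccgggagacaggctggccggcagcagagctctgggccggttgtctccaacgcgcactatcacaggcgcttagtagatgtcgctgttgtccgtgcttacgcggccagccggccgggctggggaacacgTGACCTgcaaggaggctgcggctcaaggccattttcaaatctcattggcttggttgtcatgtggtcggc
Hoxd11: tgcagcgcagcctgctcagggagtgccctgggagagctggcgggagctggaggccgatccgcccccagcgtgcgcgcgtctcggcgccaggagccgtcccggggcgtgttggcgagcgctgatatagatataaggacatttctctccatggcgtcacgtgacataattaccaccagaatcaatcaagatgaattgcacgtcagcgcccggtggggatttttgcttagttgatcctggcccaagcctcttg
The starts of *Hoxd4* and *Hoxd11* shown here lie inside the longer gene models of GENCODE, and *Hoxd11* has another RefSeq start, with its 250 bases at chr2:74679308-74679557, which are not shown. The hexamer was found in *Hoxd4*, *Hoxd8* and *Hoxd10* and was in neither stretch of *Hoxd11*. Of the other genes of the cluster, not shown, *Hoxd3* held it and *Hoxd1*, *Hoxd9*, *Hoxd12* and *Hoxd13* did not. Over 32851 promoters of the same length, 14.0% held it, and it was in 6 of the 24 Hox promoters matched by symbol, which belong to 22 genes. A match describes the letters and is no measured binding site.

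At E12.5 the UB cells again had low levels of most 5' HoxA, HoxC and HoxD genes, but replicate 1, the library with the high NP and SP marker sums, was far above the others. *Hoxc10* measured 56.5, 2.23, 2.10 and 3.09 in the E12.5 UB libraries, *Hoxd11* 42.9, 5.73, 5.12 and 15.1 and *Hoxa11* 33.9, 2.698, 2.92 and 5.22. Between E12.5 UB and NP, 26 of 33 Hox genes were called (6 higher, 20 lower; 32.7% of all genes, 18.4% higher and 14.3% lower), and between UB and SP 33 of 33 (13 higher, 20 lower; 46.4% of all genes, 24.6% higher and 21.8% lower). Without replicate 1 of E12.5 UB the counts were 28 and 33 (36.8% and 49.1% of all genes), and without replicate 1 of both groups 31 and 33 (44.1% and 60.6%). With that UB library left out, *Hoxc5*, *Hoxc6*, *Hoxc8*, *Hoxc11* and *Hoxd12* reached 1 in the mesenchymal cells only, as did *Hoxd13* against SP. Apart from these, 23 of 28 and 27 of 27 were then called. Against NP, the largest differences were -4.74 for *Hoxc10*, -4.08 for *Hoxd12*, -4.03 for *Hoxa11*, -3.93 for *Hoxc9* and -3.81 for *Hoxc11* and 2.41 for *Hoxd8*, 2.24 for *Hoxd1*, 1.92 for *Hoxd3*, 1.67 for *Hoxb7* and 1.64 for *Hoxb8* (adjusted p 1.14e-05 to 0.00297). Against SP, they were -4.79 for *Hoxc10*, -4.14 for *Hoxc4*, -3.91 for *Hoxc6*, -3.79 for *Hoxc11* and -3.65 for *Hoxa10* and 4.73 for *Hoxb8*, 3.64 for *Hoxd1*, 3.15 for *Hoxb7*, 2.91 for *Hoxd8* and 2.39 for *Hoxb6* (1.92e-07 to 0.00156). *Hoxd12* and *Hoxc11* in the NP list, and *Hoxc6* and *Hoxc11* in the SP list, reached 1 in UB only through replicate 1. Their calls and p-values in these lists therefore support nothing. Without replicate 1 of E12.5 UB the decreases against NP were -5.76 for *Hoxc10*, -4.70 for *Hoxd12*, -4.77 for *Hoxa11*, -4.82 for *Hoxc9* and -4.54 for *Hoxc11* and those against SP -5.81 for *Hoxc10*, -4.78 for *Hoxc4*, -4.70 for *Hoxc6*, -4.52 for *Hoxc11* and -4.40 for *Hoxa10*, all larger in size than with it. Among the other genes given in full, the log2 fold change against NP was -3.19 for *Hoxa9*, -3.76 for *Hoxa10*, -3.59 for *Hoxd10* and -3.70 for *Hoxd11*, with adjusted p 0.000673 to 0.00234. *Hoxb9* was lower (-1.005 ± 0.1034, adjusted p = 7.35e-05) and *Hoxd9* higher (0.6005 ± 0.14, adjusted p = 0.00869). Against SP, *Hoxa9*, *Hoxc9*, *Hoxd10*, *Hoxa11* and *Hoxd11* were lower, at -2.22 for *Hoxa9*, -3.39 for *Hoxc9*, -3.282 for *Hoxd10*, -3.18 for *Hoxa11* and -3.18 for *Hoxd11* (0.00119 to 0.0121), and *Hoxb9* and *Hoxd9* were higher, at 1.70 for *Hoxb9* and 0.5959 for *Hoxd9* (6.54e-05 to 0.0175).

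**Figure D3:**
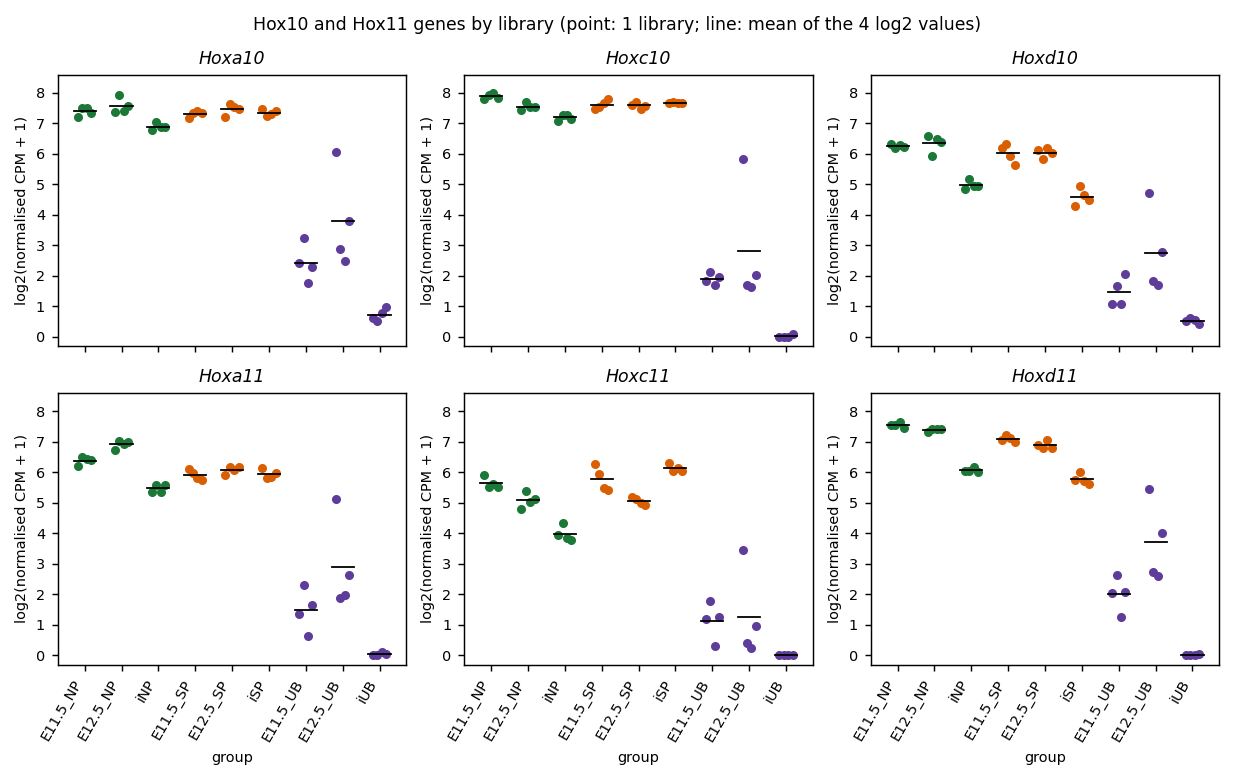
Level of *Hoxa10*, *Hoxc10*, *Hoxd10*, *Hoxa11*, *Hoxc11* and *Hoxd11* in each library, as log2(normalised CPM + 1), by group; points are libraries and the line is the mean of the log2 values. *Hoxd11* spans 175 to 201 in E11.5 NP, 63.5 to 70.9 in iNP and 1.40 to 5.19 in E11.5 UB, and replicate 1 of E12.5 UB, at 42.9, is far above the other 3 UB libraries of its group.

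Between E11.5 and E12.5, 6 of 34 Hox genes were called in NP and 6 of 34 in SP, beside 6.34% and 8.52% of all genes. *Hoxd1* and *Hoxd13* were lower at E12.5 in both cell types. In NP, 6 of 34 Hox genes were called (3 higher and 3 lower at E12.5; 6.34% of all genes, 2.74% higher and 3.59% lower). *Hoxb1* measured 4.40, 6.60, 7.02 and 5.30 at E12.5, all below the E11.5 libraries (-2.003 ± 0.26, adjusted p = 0.00464). *Hoxd1* (-1.22 ± 0.22, adjusted p = 0.017) and *Hoxd13* (-0.92 ± 0.20, adjusted p = 0.0315) were lower, and *Hoxb7* (0.83 ± 0.15, adjusted p = 0.0162), *Hoxb8* (0.63 ± 0.11, adjusted p = 0.0155) and *Hoxa11* (0.54 ± 0.11, adjusted p = 0.0217) were higher. The other Hox9, Hox10 and Hox11 genes were not called, with log2 fold changes from -0.55 for *Hoxc11* to 0.2368 for *Hoxa9*. The count depended on single libraries: it was 9 without replicate 1 of E12.5 NP, the library with the high stress gene sum (17.1% of all genes), 1 without replicate 2 of E11.5 NP (1.43%) and 11 without replicate 2 of E12.5 NP (9.65%). It was 2 or 3 without replicate 3 of E11.5 NP or without replicate 3 or 4 of E12.5 NP (1.4% to 2.04%).

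In SP, 6 of 34 Hox genes were called between the stages (1 higher and 5 lower at E12.5; 8.52% of all genes, 3.73% higher and 4.8% lower). *Hoxd13*, at the 5' end of HoxD and active in distal limb and urogenital tissue, measured 176, 124, 42.1 and 26.8 in E11.5 SP and 8.94, 4.07, 3.92 and 3.99 in E12.5 SP (-3.59 ± 0.54, adjusted p = 0.0062). The groups did not overlap, which gives p = 0.0286 in an exact two-sided permutation test, the smallest that 4 against 4 libraries allow. *Hoxa13* measured 27.1, 19.5, 4.81 and 1.27 and 0.163, 0.202, 0.526 and 0.184 (-2.89), reaching 1 at E11.5 only, and without it 5 of 33 genes were called. *Hoxd1* (-2.26 ± 0.27, adjusted p = 0.00232), *Hoxd12* (-1.05 ± 0.25, adjusted p = 0.0322) and *Hoxc11* (-0.73 ± 0.19, adjusted p = 0.0453) were also lower and *Hoxc5* higher (0.79 ± 0.19, adjusted p = 0.033). *Hoxb9* fell short of the threshold (-1.37 ± 0.3997, adjusted p = 0.0656), as did *Hoxb7* (-0.1611 ± 0.22, adjusted p = 0.713), and the remaining Hox9, Hox10 and Hox11 genes had log2 fold changes between -0.25 for *Hoxa9* and 0.38 for *Hoxc9*. The 10 UB markers summed to 147 to 331 in E11.5 SP and 87.0 to 119 in E12.5 SP, with 8 of 10 lower. Limb and hindlimb markers summed to 121 to 443 in E11.5 SP and 55.3 (55.25) to 118 in E12.5 SP, with 2 of the 4 tested lower. The part of both in these differences was not tested. Without replicates 1 and 2 of E11.5 SP, 2 Hox genes were called (0 higher, 2 lower; 1.27% of all genes), *Hoxd13* (-2.54 ± 0.34, adjusted p = 0.0313) and *Hoxd1* (-1.86 ± 0.26, adjusted p = 0.0313). The log2 fold change was then -1.53 for *Hoxa13*. The count also fell to 2 without replicate 1, 2 or 3 of E11.5 SP alone or replicate 3 or 4 of E12.5 SP alone (3.08% to 4.14% of all genes). It was 3 without replicate 2 of E12.5 SP (4.88%) and 8 without replicate 1 of E12.5 SP (21.6%).

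The same E11.5 SP libraries were high in the neighbours of the Hox13 genes. *Evx1*, the homeobox gene next to *Hoxa13*, measured 41.5, 32.6, 3.65 and 1.09 in the E11.5 SP libraries, and *Evx2*, next to *Hoxd13*, measured 20.1, 15.7, 0.834 and 0.286. *Isl1*, a gene of hindlimb and genital mesenchyme, measured 94.7, 74.1, 19.3 and 4.73. In all of these, replicates 1 and 2 were above replicates 3 and 4. The E11.5 UB libraries also spread widely for *Hoxd13*, at 5.55, 15.4, 0.0755 and 7.68, and for *Evx1*, at 2.58, 8.04, 0.151 and 2.74, with replicate 2 the highest and replicate 3 the lowest for both. In iUB, *Evx1* measured 6.39, 6.42, 6.57 and 6.09, while *Hoxa13* averaged 0.340 and *Evx2* had no read.

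**Figure D4:**
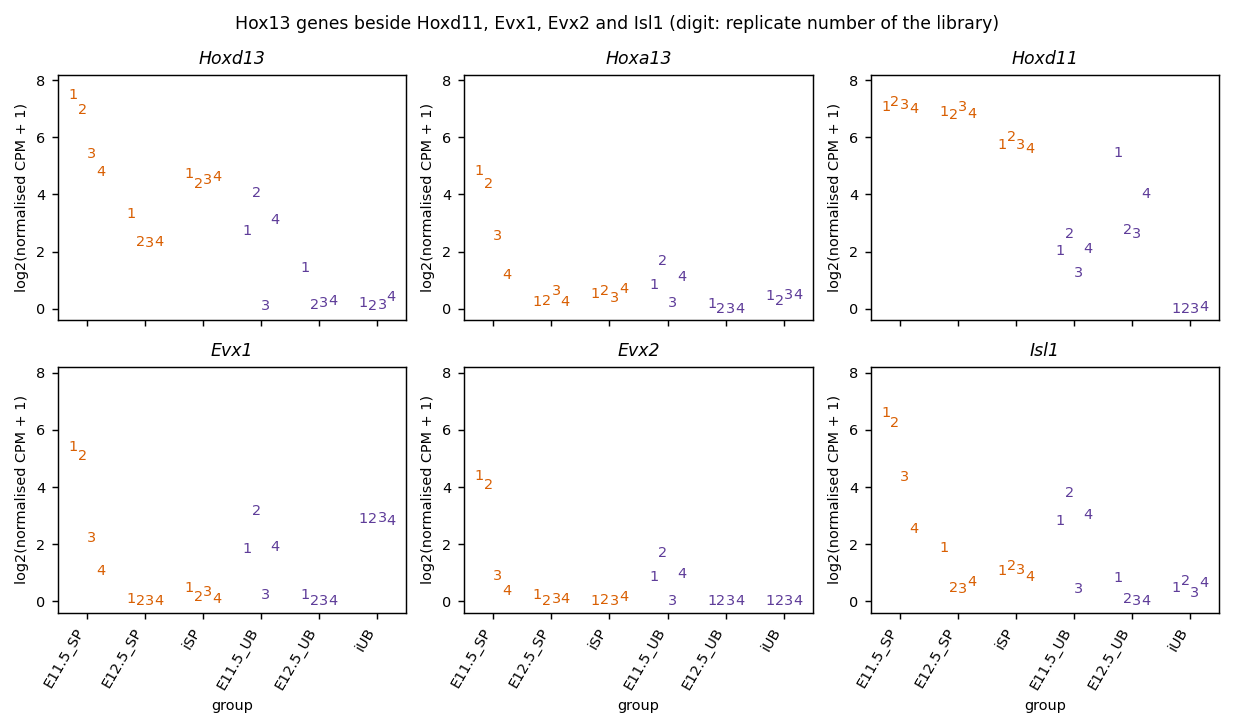
Level of *Hoxd13*, *Hoxa13*, *Hoxd11*, *Evx1*, *Evx2* and *Isl1* in the SP and UB groups, as log2(normalised CPM + 1); each digit is a library and gives its replicate number. In E11.5 SP, *Hoxd13* is 176 and 124 in replicates 1 and 2 and 42.1 and 26.8 in replicates 3 and 4, while *Hoxd11* spans only 127 to 150 over the same libraries.

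In UB the stages are those of the titles. The label for the source of the cells gives each UB sample the other stage, under which every direction here would turn and the other UB comparisons would change stage. Of 30 Hox genes, 10 were called between the stages (9 higher and 1 lower at E12.5, beside 26.5% of all genes, 14.2% higher and 12.3% lower). The higher ones were 5 of the 8 HoxB genes and 4 of the 8 HoxD genes tested. *Hoxd9* measured 42.6, 37.1, 36.5 and 40.6 at E11.5 and 68.9, 94.3, 98.8 and 103 at E12.5 (1.185 ± 0.12, adjusted p = 0.000559), *Hoxb7* 42.0, 31.0, 40.3 and 35.1 and 50.7, 65.0, 69.2 and 65.4 (0.74 ± 0.12, adjusted p = 0.00312), and *Hoxb9* 80.7, 90.8, 91.5 and 75.0 and 123, 153, 132 and 145 (0.7031 ± 0.090, adjusted p = 0.00114). The E12.5 libraries were all above the E11.5 libraries for these 3 genes. *Hoxd3* (0.72 ± 0.23, adjusted p = 0.0454) and *Hoxd8* (0.62 ± 0.1561, adjusted p = 0.0177) were higher too, and *Hoxa4* was lower (-0.67 ± 0.20, adjusted p = 0.0369). *Hoxd11* (1.70 ± 0.58, adjusted p = 0.0575) was not called, nor were *Hoxa9*, *Hoxc9*, *Hoxa10*, *Hoxc10*, *Hoxd10*, *Hoxa11* and *Hoxc11*, with log2 fold changes from 0.14 for *Hoxc11* to 1.51 for *Hoxa9*. Without replicate 1 of E12.5 UB, 19 Hox genes were called (14 higher, 5 lower; 43.8% of all genes): the 10 above and 9 others, among them *Hoxd11* (1.12 ± 0.34, adjusted p = 0.0174). In these libraries *Hoxc5*, *Hoxc11* and *Hoxd13* reached 1 at E11.5 only, and without them 17 of 27 were called, 14 higher and 3 lower. Leaving out any other single library lowered the count to 5 or 6 (17.1% to 23.7% of all genes).

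The mESC-derived cells were then set against E11.5 cells of their type. In iUB cells the Hox10 to Hox13 genes were at or near 0, *Hoxd1*, *Hoxd3*, *Hoxd4*, *Hoxd8* and *Hoxd9* were lower than in E11.5 UB, while *Hoxc4*, *Hoxc5* and *Hoxa5* were higher. Of 26 Hox genes tested, 20 were called (7 higher and 13 lower in iUB; 60.5% of all genes, 32.1% higher and 28.5% lower). Taken without sign, the median log2 fold change was 0.92 for Hox genes, 0.73 for the 21 that reached 1 in both groups, and 0.41 for all genes. Not tested, because they reached 1 in too few libraries, were *Hoxa6*, *Hoxa11*, *Hoxa13*, *Hoxb1*, *Hoxb13*, *Hoxc8*, *Hoxc9*, *Hoxc11*, *Hoxc12*, *Hoxc13*, *Hoxd12* and *Hoxd13*. *Hoxa10*, *Hoxc6*, *Hoxc10*, *Hoxd10* and *Hoxd11* reached 1 in the libraries of 1 group only, and without these 15 of 21 were called, 6 higher and 9 lower.

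*Hoxc5*, a gene of the middle of HoxC at chr15:102967443-103017429, measured 30.7, 21.0, 16.7 and 17.9 in iUB and 1.29, 1.49, 0.944 and 1.67 in E11.5 UB (3.24 ± 0.19, adjusted p = 6.11e-07; 16.02-fold by the ratio of means). *Hoxc4* measured 21.5, 22.6, 16.9 and 20.5 in iUB and 3.55, 4.06, 1.70 and 2.31 in E11.5 UB (2.49 ± 0.20, adjusted p = 4.03e-06), and *Hoxa5*, known from lung and thoracic development, 17.3, 22.6, 17.1 and 19.1 and 4.07, 5.11, 5.14 and 5.23 (1.76 ± 0.12, adjusted p = 1.58e-06). All iUB libraries were above all E11.5 UB libraries for the 3 genes. *Hoxc5* shares 166 exon bases on the same strand with *Hoxc10* and is uncertain for that reason. *Hoxc10* itself had 2 reads over the 4 iUB libraries, and the part of the shared bases in the *Hoxc5* level was not tested. *Hoxc6*, between *Hoxc5* and *Hoxc8*, differed by 1.05, reaching 1 in iUB only, while *Hoxc8* averaged 0.214 in iUB and 0.303 in E11.5 UB and *Hoxc9* 0.149 and 0.952.

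*Hoxb7* measured 78.3, 68.4, 65.9 and 70.04 in iUB against 42.0, 31.0, 40.3 and 35.1 in E11.5 UB (0.92 ± 0.11, adjusted p = 4.77e-05), with no overlap and p = 0.0286 in the exact two-sided permutation test. *Hoxb9* (0.73 ± 0.089, adjusted p = 6.82e-05) and *Hoxb4* (0.53 ± 0.086, adjusted p = 0.000498) were also higher in iUB. *Hoxb5* was lower, at 45.5, 45.6, 44.1 and 43.2 in iUB against 61.1, 55.1, 58.8 and 65.9 in E11.5 UB. *Hoxb2*, *Hoxb3*, *Hoxb6* and *Hoxb8* were not called, with log2 fold changes of -0.14 for *Hoxb2*, 0.36 for *Hoxb3*, -0.015 for *Hoxb6* and -0.073 for *Hoxb8*, so *Hoxb8*, the most abundant Hox gene of UB cells per kb, measured 206, 194, 184 and 179.8 in iUB and 215, 187, 206 and 196 in E11.5 UB. Against E12.5 UB, *Hoxb7* (0.1788 ± 0.11, adjusted p = 0.214) and *Hoxb9* (0.0303 ± 0.093, adjusted p = 0.813) were not called.

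*Hoxd1* showed the largest decrease in iUB on the log2(level + 1) scale, though not by the ratio of levels, from 23.0, 22.2, 20.9 and 21.2 in E11.5 UB to 3.71, 3.73, 2.62 and 3.36 (-2.40 ± 0.11, adjusted p = 1.48e-07). *Hoxd8* measured 20.6, 25.1, 21.4 and 20.8 in iUB against 73.7, 75.0, 59.7 and 64.0 (-1.59 ± 0.1006, adjusted p = 1.08e-06), *Hoxd4* fell to 5.70 from 18.1 (-1.55 ± 0.1812, adjusted p = 5.44e-05) and *Hoxd9* to 29.8 from 39.2 (-0.39 ± 0.11, adjusted p = 0.0105). For *Hoxd1*, *Hoxd4*, *Hoxd8* and *Hoxd9* no iUB library reached the lowest E11.5 UB library. Among the 5' genes, *Hoxa10* measured 0.520, 0.426, 0.730 and 0.992 in iUB and 4.36, 8.48, 2.42 and 3.88 in E11.5 UB, and *Hoxd10* 0.446, 0.532, 0.472 and 0.354 and 1.10, 2.17, 1.13 and 3.13. *Hoxd11* had 1 read over the 4 iUB libraries against 354 in E11.5 UB, a ratio of 299 with a 95% counting interval of 53.3 to 11829. *Hoxc10* had 2 against 305 reads, a ratio of 129 (35.3 to 1067), and *Hoxa11* 3 against 223, a ratio of 62.7 (21.2 to 306). These 1 to 3 reads do not exceed the 3 reads taken as the limit of detection, so that the intervals, not the ratios, are to be read. *Hoxc11*, with no read in iUB, was at least 41.9-fold lower, taking 3 reads over the group as the limit. Without replicate 2 of E11.5 UB, which held 61 of its 147 reads, it was at least 30.4-fold lower. *Hoxd12* was at least 17.3-fold lower, and at least 7.61-fold without replicate 2 of E11.5 UB, which held 37 of its 59 reads. Limb and hindlimb markers summed to 15.3, 37.0, 8.08 and 17.5 in the E11.5 UB libraries and to 17.0 to 18.5 in iUB. *Hoxa10*, but not *Hoxd10*, was likewise highest in replicate 2 and lowest in replicate 3 of E11.5 UB. The part of these markers in the differences was not tested. *Hoxa9* was called (-0.86 ± 0.33, adjusted p = 0.0426) although its groups overlapped.

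Against E12.5 UB, 17 of 28 Hox genes were called (3 higher and 14 lower in iUB; 44.4% of all genes, 23.3% higher and 21.2% lower), and 21 without replicate 1 of E12.5 UB (52.3% of all genes), the 17 among them. *Hoxa10*, *Hoxa11*, *Hoxc10*, *Hoxd10* and *Hoxd11* reached 1 in E12.5 UB only, and without these 12 of 23 were called, 3 higher and 9 lower. Without replicate 1, *Hoxc5* and *Hoxc6* also reached 1 in 1 group only, iUB, and 14 of the other 21 were called. *Hoxc5* (3.42 ± 0.4981, adjusted p = 0.000717), *Hoxc4* (2.06 ± 0.54, adjusted p = 0.0137, groups overlapping through replicate 1) and *Hoxa4* (1.0003 ± 0.1824, adjusted p = 0.00226) were higher. The lower genes included *Hoxd1* (-2.91 ± 0.19, adjusted p = 1.15e-05), *Hoxd8* (-2.21 ± 0.1613, adjusted p = 1.86e-05) and *Hoxd9* (-1.58 ± 0.15, adjusted p = 7.11e-05). *Hoxa9* was lower as well (-2.38 ± 0.59, adjusted p = 0.0106; -1.74 ± 0.31, adjusted p = 0.00191 without replicate 1 of E12.5 UB). For the genes that reached 1 in E12.5 UB only, the log2 fold change was -3.69 for *Hoxd11*, -3.08 for *Hoxa10*, -2.86 for *Hoxa11*, -2.78 for *Hoxc10* and -2.22 for *Hoxd10*, and -3.11 for *Hoxd11*, -2.33 for *Hoxa10*, -2.12 for *Hoxa11*, -1.76 for *Hoxc10* and -1.57 for *Hoxd10* without replicate 1 of E12.5 UB.

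iNP cells had lower Hox10 and Hox11 genes and lower *Hoxd12* than E11.5 NP, and higher *Hoxb7*, *Hoxb8* and *Hoxa7*, while *Hoxd13* was not called. Of 34 Hox genes tested, 21 were called (9 higher and 12 lower in iNP; 64.7% of all genes, 35.5% higher and 29.2% lower). The share called among Hox genes was thus close to that among all genes, and so was the median log2 fold change taken without sign, 0.51 for Hox genes and 0.53 for all genes. Of the 12 genes tested of paralogue groups 9 to 13, 1 was higher and 8 were lower, and of the 15 of groups 4 to 8, 6 were higher and 3 lower. *Hoxa13*, *Hoxb13*, *Hoxc12* and *Hoxc13* were not tested.

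All Hox11 genes were lower in iNP. *Hoxd11* measured 185, 188, 201 and 175 in E11.5 NP and 65.0, 65.7, 70.9 and 63.5 in iNP (-1.48 ± 0.082, adjusted p = 5.16e-07; 2.83-fold lower by the ratio of means). *Hoxc11* measured 59.2, 44.8, 47.9 and 44.7 and 14.5, 19.2, 13.3 and 12.7 (-1.66 ± 0.15, adjusted p = 9.75e-06), and *Hoxa11* 72.6, 89.9, 85.5 and 84.3 and 40.2, 47.5, 39.8 and 46.9 (-0.91 ± 0.1040, adjusted p = 4.51e-05). No iNP library reached an E11.5 NP library for any of the 3, and the exact two-sided permutation test gave p = 0.0286 for *Hoxd11* and for *Hoxc11*. The summed Hox11 level per kb was 105 ± 3.48 in E11.5 NP and 42.2 ± 2.56 in iNP. Exons of *Hoxa11* overlap its antisense gene *Hoxa11os* over 800 bases, and *Hoxa11os* measured 34.2 ± 1.81 in E11.5 NP and 27.0 ± 4.28 in iNP (-0.34 ± 0.12, adjusted p = 0.0312), a smaller difference than that of *Hoxa11*. *Hoxd11* shares 455 exon bases with the gene model Gm28309 on the same strand, and both are uncertain to that extent.

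The Hox10 genes were also lower in iNP. *Hoxd10* measured 79.5, 71.9, 76.6 and 73.7 in E11.5 NP and 27.6, 35.5, 30.0 and 29.8 in iNP (-1.27 ± 0.0979, adjusted p = 3.89e-06), *Hoxc10* 224, 243, 257 and 229 and 136, 153, 155 and 141 (-0.7013 ± 0.086, adjusted p = 7.5e-05), and *Hoxa10* 146, 180.5, 182 and 161 and 110.0, 129.7, 116 and 116 (-0.5002 ± 0.0993, adjusted p = 0.00153). The groups did not overlap for these genes. *Hoxd12* was lower (-1.33 ± 0.094, adjusted p = 2.4e-06), as was *Hoxb9* (-0.42 ± 0.12, adjusted p = 0.012). *Hoxa9* (-0.20 ± 0.090, adjusted p = 0.073) and *Hoxd9* (0.15 ± 0.13, adjusted p = 0.328) were not called, and *Hoxc9* was higher (0.45 ± 0.12, adjusted p = 0.00966). At the other end of HoxD, *Hoxd1* measured 22.5, 14.9, 15.6 and 9.68 in E11.5 NP and 3.31, 4.75, 3.78 and 3.53 in iNP (-1.74 ± 0.22, adjusted p = 8.29e-05) and *Hoxd4* 14.8, 12.3, 12.7 and 12.4 and 3.97, 2.13, 4.86 and 5.28 (-1.52 ± 0.21, adjusted p = 0.00014), both without overlap. *Hoxd4* shares 388 exon bases with *Hoxd3* and 1154 with the gene model Gm28230 on the same strand and is uncertain to that extent. *Hoxd3* was higher in iNP (0.51 ± 0.13, adjusted p = 0.00631). It shares 2225 exon bases, 53.1% of its own, with Gm28230 on the same strand and is uncertain as well, here and in the other comparisons.

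*Hoxb7* had the largest increase in iNP, from 13.6, 8.86, 8.998 and 9.64 in E11.5 NP to 33.2, 51.7, 33.4 and 35.6 in iNP (1.80 ± 0.1783, adjusted p = 1.87e-05), and its iNP mean of 38.5 was close to the 37.1 of E11.5 UB. UB markers summed to 44.2 to 61.1 in E11.5 NP and 104 (104.5) to 111 in iNP, against 4953 to 5324 in E11.5 UB, and their part in the *Hoxb7* level was not tested. *Hoxb8* measured 43.4, 48.3, 49.8 and 40.2 in E11.5 NP and 80.1, 122, 96.0 and 90.4 in iNP (1.07 ± 0.13, adjusted p = 8.72e-05), and *Hoxa7* 23.1, 19.1, 17.4 and 17.8 and 37.1, 38.04, 39.8 and 40.6 (0.98 ± 0.11, adjusted p = 3.9e-05). All iNP libraries were above all E11.5 NP libraries for the 3 genes. *Hoxc8* (0.66 ± 0.13, adjusted p = 0.00163) and *Hoxa3* (0.54 ± 0.14, adjusted p = 0.00726) followed. *Hoxa7* overlaps *Hoxaas3* on the opposite strand over 586 exon bases, and *Hoxaas3* was higher in iNP as well (1.59 ± 0.14, adjusted p = 9.35e-06).

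Against E12.5 NP, 20 of 34 Hox genes were called (8 higher and 12 lower in iNP; 44.3% of all genes, 25.6% higher and 18.7% lower), and 18 without replicate 1 of E12.5 NP (44.1% of all genes). The count fell to 11 to 13 without replicate 3 or 4 of E12.5 NP or replicate 1, 3 or 4 of iNP (36.4% to 37.9%). Lower were the Hox11 genes *Hoxa11* (-1.46 ± 0.12, adjusted p = 1.27e-05), *Hoxd11* (-1.33 ± 0.1045, adjusted p = 7.27e-06) and *Hoxc11* (-1.11 ± 0.1780, adjusted p = 0.000714), the Hox10 genes *Hoxd10*, *Hoxa10* and *Hoxc10* at -1.37 for *Hoxd10*, -0.68 for *Hoxa10* and -0.34 for *Hoxc10* (adjusted p 0.000111 to 0.0302), *Hoxd12* (-1.57) and *Hoxd4* (-1.37). *Hoxa9* and *Hoxb9* were at -0.44 for *Hoxa9* and -0.32 for *Hoxb9* (adjusted p 0.022 and 0.0408), and *Hoxc9* and *Hoxd9* at 0.29 for *Hoxc9* and 0.4037 for *Hoxd9* (0.161 and 0.0493). Higher were *Hoxb1* (1.502 ± 0.1843, adjusted p = 0.00013), *Hoxd13* (1.34 ± 0.17, adjusted p = 0.000164), *Hoxb7* (0.97 ± 0.17, adjusted p = 0.00108), *Hoxd3* (0.68) and *Hoxc6* (0.48). *Hoxb1* measured 15.4, 23.6, 16.5 and 17.9 in iNP, between the E12.5 NP libraries and most of the E11.5 ones. The comparisons with E11.5 and with E12.5 NP share the iNP libraries.

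In iSP cells most HoxD genes were lower than in E11.5 SP, while *Hoxa10*, *Hoxc10*, *Hoxa11* and *Hoxc11* were not called. Of 36 Hox genes tested, 19 were called (3 higher and 16 lower in iSP; 67.6% of all genes, 35.5% higher and 32.1% lower). Taken without sign, the median log2 fold change was 0.55 for Hox genes and 0.54 for all genes. Of the 9 HoxD genes tested, 7 were lower and none higher. *Hoxc12* and *Hoxc13* were not tested, and *Hoxa13* and *Hoxb13* reached 1 in 1 group only, without which 17 of 34 were called.

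*Hoxd11* measured 132, 150.2, 139 and 127 in E11.5 SP and 52.6, 63.8, 51.7 and 47.7 in iSP (-1.33 ± 0.1012, adjusted p = 3.48e-06), and *Hoxd10* 71.3, 79.0, 59.8 and 48.2 and 18.6, 29.6, 23.9 and 21.3 (-1.43 ± 0.1769, adjusted p = 7.56e-05). *Hoxd9* was lower as well (-0.56 ± 0.11, adjusted p = 0.00159), and the groups did not overlap for *Hoxd9*, *Hoxd10* or *Hoxd11*. By contrast, *Hoxc10* measured 175, 184, 201 and 219.7 in E11.5 SP and 204, 208, 202 and 202 in iSP (0.070 ± 0.083, adjusted p = 0.478). *Hoxa10* (0.0301 ± 0.082, adjusted p = 0.758), *Hoxa11* (0.033 ± 0.11, adjusted p = 0.799), *Hoxc11* (0.34 ± 0.1812, adjusted p = 0.124), *Hoxa9* (0.090 ± 0.1587, adjusted p = 0.634), *Hoxc9* (-0.12 ± 0.14, adjusted p = 0.475) and *Hoxb9* (-0.27 ± 0.37, adjusted p = 0.537) were not called. *Hoxb9* and *Hoxc11* of E11.5 SP were highest in replicates 1 and 2, and without those *Hoxc11* was called higher in iSP (0.67 ± 0.0969, adjusted p = 0.000299).

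*Hoxd1* measured 17.7, 13.8, 11.48 and 6.22 in E11.5 SP and 2.80, 2.47, 2.14 and 2.10 in iSP (-1.90 ± 0.25, adjusted p = 0.000125) and *Hoxd4* 13.05, 17.4, 7.99 and 5.98 and 1.74, 4.73, 3.47 and 2.37 (-1.53 ± 0.32, adjusted p = 0.00225). Both genes were lower in every iSP library. *Hoxd13* measured 25.4, 19.6, 21.9 and 23.5 in iSP, below all E11.5 SP libraries (-1.61 ± 0.51, adjusted p = 0.0184; exact two-sided permutation p = 0.0286). *Hoxa13* differed by -2.67, reaching 1 in E11.5 SP only. Without replicates 1 and 2 of E11.5 SP, the log2 fold change of *Hoxd13* was smaller (-0.56 ± 0.17, adjusted p = 0.0187), as was that of *Hoxa13* (-1.31 for *Hoxa13*), and 20 Hox genes were called (7 higher, 13 lower; 67.9% of all genes), 16 of them also called with all libraries. Higher in iSP were *Hoxb7*, from 10.4, 7.29, 6.87 and 4.37 to 15.5, 13.6, 12.8 and 15.7 (0.95 ± 0.20, adjusted p = 0.00237), and *Hoxb8* (0.77 ± 0.3000, adjusted p = 0.0432). Of the 9 HoxB genes tested apart from *Hoxb13*, these 2 were higher and 4 were lower. The means of the lower ones in E11.5 SP and iSP were 30.0 and 24.85 for *Hoxb2*, 21.0 and 8.25 for *Hoxb4*, 27.1 and 13.8 for *Hoxb5*, and 29.1 and 15.5 for *Hoxb6*. *Hoxb13*, a gene of the tail bud and hindgut, measured 2.61, 2.69, 1.77 and 2.40 in iSP and 0.133, 0.0486, 0.119 and 0.0260 in E11.5 SP, reaching 1 in iSP only. Limb and hindlimb markers summed to 577 to 752 in iSP against 121 to 443 in E11.5 SP, with 1 higher, 1 lower and 5 not called of the 7 genes. UB markers summed to 81.7 to 90.1 in iSP against 147 to 331 in E11.5 SP, with 6 of 10 lower and none higher. Of the 7 paraxial and early mesoderm markers tested, 6 were higher and 1 lower in iSP. The part of these markers in the Hox levels of iSP was not tested. With quantile normalisation 23 Hox genes were called, 6 higher and 17 lower (66.7% of all genes).

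Against E12.5 SP, 26 of 34 Hox genes were called (11 higher and 15 lower in iSP; 62.1% of all genes, 33.3% higher and 28.8% lower). Without replicate 1 of E12.5 SP the count was also 26 (70.6% of all genes). *Hoxb13* reached 1 in iSP only, and without it 25 of 33 were called. The largest decreases were -1.46 for *Hoxd10*, -1.44 for *Hoxa6*, -1.28 for *Hoxc4*, -1.26 for *Hoxc8* and -1.11 for *Hoxd11* (adjusted p 2.12e-05 to 0.00845) and the largest increases 1.99 for *Hoxd13*, 1.72 for *Hoxb13*, 1.64 for *Hoxb8*, 1.19 for *Hoxd12* and 1.11 for *Hoxb7* (7.92e-06 to 0.000544 without *Hoxb13*). *Hoxd13*, lower in iSP than in E11.5 SP, was thus higher than in E12.5 SP, whose libraries measured 8.94, 4.07, 3.92 and 3.99. *Hoxc11* (1.07 ± 0.0996, adjusted p = 1.58e-05), *Hoxb9* (1.10 ± 0.17, adjusted p = 0.00046) and *Hoxa9* (0.34 ± 0.12, adjusted p = 0.0374) were higher. *Hoxd9* (-0.73 ± 0.15, adjusted p = 0.00212) and *Hoxc9* (-0.5009 ± 0.17, adjusted p = 0.0301) were lower. *Hoxa10*, *Hoxc10* and *Hoxa11* were not called, at -0.11 for *Hoxa10*, 0.088 for *Hoxc10* and -0.14 for *Hoxa11* (adjusted p 0.256 to 0.374).

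**Figure D5:**
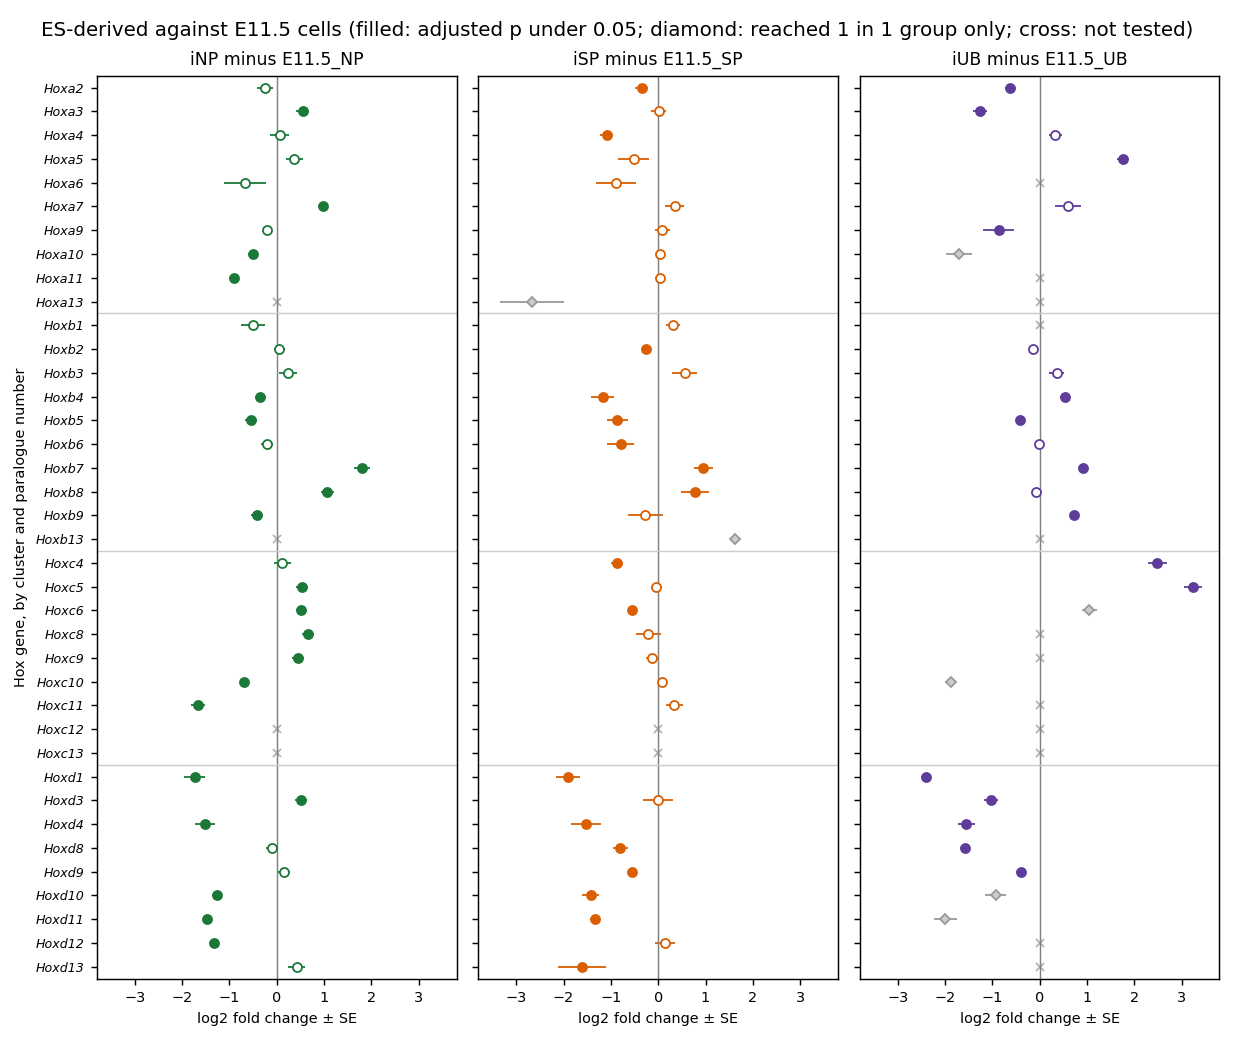
Log2 fold change (± SE) of each Hox gene in iNP, iSP and iUB against the E11.5 cells of the same type; filled circles have an adjusted p under 0.05, open circles do not, grey diamonds are genes that reached 1 in 1 group only and crosses genes not tested. *Hoxd1* and *Hoxd4* are lower in all 3 panels and *Hoxb7* is higher in all 3, *Hoxd10* and *Hoxd11* are lower in iNP and iSP, and *Hoxc10* is -0.70 in iNP and 0.070 in iSP.

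Whether these differences depended on the cell type was tested with an interaction term over the 16 libraries of 2 cell types, as the log2 fold change of one mESC-derived type minus that of another. Between the NP and SP comparisons, 18 of 36 Hox genes differed (12 with the higher value in NP and 6 in SP; 29.3% of all genes, 17.4% higher and 11.9% lower). *Hoxc11* (-1.9997 ± 0.25, adjusted p = 1.13e-05), *Hoxa11* (-0.95 ± 0.15, adjusted p = 0.000135), *Hoxc10* (-0.77 ± 0.12, adjusted p = 8.56e-05) and *Hoxa10* (-0.53 ± 0.13, adjusted p = 0.00438) differed, as did *Hoxd12* (-1.47). Their values were lower in the NP comparison. Of the 4 groups, *Hoxb13* reached 1 in iSP only and *Hoxa13* in E11.5 SP only, and without these 16 of 34 differed, 11 with the higher value in NP and 5 in SP. The value was -1.23 for *Hoxb13* and 2.59 for *Hoxa13*. For *Hoxd11* (-0.15 ± 0.13, adjusted p = 0.42) and *Hoxd10* (0.15 ± 0.21, adjusted p = 0.64) the difference was not called, and its 2 estimates were small beside the decrease of over 1 in each cell type. Positive differences were found for *Hoxd13*, *Hoxa4*, *Hoxc6* and *Hoxc4*, at 2.03 for *Hoxd13*, 1.15 for *Hoxa4*, 1.06 for *Hoxc6* and 0.98 for *Hoxc4*, and for *Hoxb7* (0.85 ± 0.28, adjusted p = 0.033). Without replicates 1 and 2 of E11.5 SP, 14 Hox genes differed (32.0% of all genes), 12 of them among the 18, and 12 of 34 without *Hoxa13* and *Hoxb13*. Of the genes named here, *Hoxb7* no longer differed (0.56 ± 0.27, adjusted p = 0.129), and *Hoxa13* and *Hoxd13* were at 1.23 for *Hoxa13* and 0.98 for *Hoxd13*.

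Between the UB and NP comparisons, 19 of 34 Hox genes differed (7 higher and 12 lower in UB; 47.1% of all genes, 22.3% higher and 24.9% lower), and between UB and SP 19 of 36 (8 higher and 11 lower; 47.4% of all genes, 24.2% higher and 23.3% lower). *Hoxc5* (2.71 ± 0.23, adjusted p = 1e-07 against NP; 3.279 ± 0.23, adjusted p = 1.2e-08 against SP) and *Hoxc4* (2.37 ± 0.29, adjusted p = 4.41e-06; 3.36 ± 0.25, adjusted p = 2.17e-08) had the largest positive values. *Hoxa5* and *Hoxb4* were positive in both (1.40 for *Hoxa5* and 0.87 for *Hoxb4* against NP; 2.28 for *Hoxa5* and 1.70 for *Hoxb4* against SP), *Hoxb9* against NP (1.15 ± 0.15, adjusted p = 1.18e-05) and *Hoxa13* against SP (2.14). The increase of *Hoxb7* was smaller in UB than in NP (-0.88 ± 0.22, adjusted p = 0.00299) and did not differ by the test from that in SP (-0.033 ± 0.2390, adjusted p = 0.923). The lowest values against NP were -2.71 for *Hoxd13*, -1.80 for *Hoxa3*, -1.54 for *Hoxd3*, -1.49 for *Hoxd8* and -1.21 for *Hoxa10*, and against SP -2.34 for *Hoxb13*, -1.95 for *Hoxc10*, -1.74 for *Hoxa10*, -1.49 for *Hoxa11* and -1.48 for *Hoxc11*. Without replicates 1 and 2 of E11.5 SP, 21 Hox genes differed between UB and SP (46.3% of all genes), 17 of them among the 19, and *Hoxa13* no longer differed (0.78 ± 0.45, adjusted p = 0.175). The 5' genes near 0 in UB cells have little room to fall on the log2(level + 1) scale.

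The 3 mESC-derived types were also compared with each other. Between iNP and iSP, 26 of 35 Hox genes were called (18 higher and 8 lower in iNP; 30.7% of all genes, 16.5% higher and 14.2% lower), and 25 of 34 without *Hoxb13*, which reached 1 in iSP only. Of the other 9 HoxB genes 8 were higher. Of the other 12 genes of groups 9 to 13, 4 were higher and 6 lower. Between NP and SP at E11.5, 7 were higher and 1 lower of 12, *Hoxa13* left aside. The 5 largest increases in iNP were 3.09 for *Hoxb1*, 1.90 for *Hoxb8*, 1.76 for *Hoxb2*, 1.63 for *Hoxb6* and 1.57 for *Hoxb5* (adjusted p 6.58e-07 to 6.06e-05), and the 5 largest decreases -2.16 for *Hoxd13*, -2.16 for *Hoxc11*, -1.33 for *Hoxb13*, -1.03 for *Hoxd12* and -0.48 for *Hoxc10* (1.7e-06 to 0.000746 without *Hoxb13*). *Hoxc11* measured 14.5, 19.2, 13.3 and 12.7 in iNP and 78.8, 65.1, 69.1 and 64.7 in iSP, without overlap. *Hoxb7*, *Hoxb9*, *Hoxc9* and *Hoxd9* were higher in iNP at 1.34 for *Hoxb7*, 1.29 for *Hoxb9*, 1.33 for *Hoxc9* and 1.13 for *Hoxd9* (2.93e-06 to 0.000231), *Hoxa11* and *Hoxa10* lower at -0.47 for *Hoxa11* and -0.45 for *Hoxa10* (0.0026 to 0.00648). *Hoxa9*, *Hoxd10* and *Hoxd11* were at 0.20 for *Hoxa9*, 0.3956 for *Hoxd10* and 0.2989 for *Hoxd11* (0.0445 to 0.133), and *Hoxd11* overlapped between the groups.

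iUB differed from iNP in 28 of 34 Hox genes (5 higher and 23 lower in iUB; 52.2% of all genes, 25.8% higher and 26.3% lower) and from iSP in 32 of 34 (13 higher and 19 lower; 64.7% of all genes, 32% higher and 32.7% lower). Of these genes, 11 in each comparison reached 1 only in the mesenchymal cells, and without them 17 of 23 and 21 of 23 were called. Higher than in iNP were 1.32 for *Hoxb4*, 1.29 for *Hoxb6*, 0.98 for *Hoxb8*, 0.88 for *Hoxb7* and 0.48 for *Hoxc5* (adjusted p 5.61e-06 to 0.0484), and higher than in iSP 2.91 for *Hoxb6*, 2.88 for *Hoxb8*, 2.76 for *Hoxb4*, 2.22 for *Hoxb7* and 1.63 for *Hoxb5* (1.82e-09 to 1.98e-07). The largest decreases were -7.17 for *Hoxc10*, -6.17 for *Hoxa10*, -6.06 for *Hoxd11*, -5.90 for *Hoxc9* and -5.43 for *Hoxa11* against iNP and -7.65 for *Hoxc10*, -6.62 for *Hoxa10*, -6.13 for *Hoxc11*, -5.91 for *Hoxa11* and -5.76 for *Hoxd11* against iSP, all of them genes that reached 1 only in the mesenchymal cells. By the ratio of means, *Hoxa10* was 177-fold lower in iUB than in iNP and 243-fold lower than in iSP. The remaining Hox9, Hox10 and Hox11 genes were at -5.13 for *Hoxa9*, -0.65 for *Hoxb9*, -1.38 for *Hoxd9*, -4.45 for *Hoxd10* and -3.98 for *Hoxc11* against iNP and -4.93 for *Hoxa9*, 0.64 for *Hoxb9*, -4.58 for *Hoxc9*, -0.25 for *Hoxd9* and -4.05 for *Hoxd10* against iSP.

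Hox proteins bind DNA with cofactors of the Pbx, Meis and Pknox families, and 9 such genes were measured. In E11.5 UB, 8 were lower and 1 higher than in NP, beside 31.5% and 28.7% of all genes. *Meis1* measured 2.85 ± 0.964 in E11.5 UB, 125 ± 7.53 in NP and 295 ± 33.6 in SP (-5.07 ± 0.15, adjusted p = 3.95e-11 against NP), and *Meis2* 9.65 ± 0.808, 324 ± 20.6 and 442 ± 50.7 (-4.93 ± 0.075, adjusted p = 2.43e-13). Against the E11.5 cells of their type, 3 were higher and 4 lower in iNP, 3 and 3 in iSP and 4 and 3 in iUB, beside 64.7%, 67.6% and 60.5% of all genes called. *Meis3* was lower in all 3, at -2.11, -2.42 and -1.39.

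Of 23 genes upstream of Hox clusters (retinoic acid enzymes and receptors, Cdx factors, chromatin regulators), 20, 18 and 20 were tested in the NP, SP and UB comparisons with E11.5 cells. Called were 6 higher and 13 lower in iNP, 5 and 6 in iSP, and 6 and 8 in iUB, beside the same shares of all genes called in the 3 comparisons (64.7%, 67.6% and 60.5%). *Cyp26a1*, which breaks down retinoic acid, measured 3.66, 6.36, 4.28 and 3.16 in iNP and at most 0.0853 in an E11.5 NP library, and it was lower in iUB (-1.30 ± 0.15, adjusted p = 4.51e-05). *Rarg*, a retinoic acid receptor, was higher in iNP (2.21 ± 0.15, adjusted p = 2.05e-06) and lower in iUB (-1.13 ± 0.075, adjusted p = 1.48e-06). *Aldh1a2*, which makes retinoic acid, averaged 759 in E11.5 SP and 176 in iSP (-2.08 ± 0.14, adjusted p = 1.69e-06). *Kmt2a*, a methyltransferase that keeps Hox genes active, averaged 366 ± 135 in E11.5 NP and 82.2 ± 41.7 in iNP (-2.30 ± 0.46, adjusted p = 0.00156) and was lower in iSP and iUB as well (-1.71 and -1.53), with a wide spread between replicates.

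Of 18 kidney genes known to act downstream of or beside Hox11, 17 were tested in iNP, with 3 higher and 9 lower than in E11.5 NP. In iSP 4 were higher and 9 lower of 18, and in iUB 6 and 4 of 15, to be read beside those shares of all genes. *Six2*, which maintains nephron progenitors, averaged 590.2 in E11.5 NP and 139 in iNP (-2.08 ± 0.1036, adjusted p = 2.69e-07), and *Lhx1* was higher in iNP (3.85 ± 0.62, adjusted p = 0.000393). *Gdnf*, the ligand of RET, was lower in iNP (-0.61 ± 0.19, adjusted p = 0.0152) and in iSP (-2.45 ± 0.15, adjusted p = 1.16e-06), and *Foxd1*, a factor of the renal stroma, averaged 410.4 in E11.5 SP and 15.2 in iSP (-4.64 ± 0.23, adjusted p = 3.44e-07). In iUB, *Wnt9b* was lower (-2.19 ± 0.15, adjusted p = 1.73e-06). Whether these genes moved because of the Hox genes was not tested.

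Of 29 non-coding or neighbouring genes of the clusters, 22 were in the table. In iNP 6 were higher and 4 lower of 15 tested, in iSP 1 and 4 of 16, and in iUB 7 and 4 of 14, again beside 64.7%, 67.6% and 60.5% of all genes. *Haglr*, a non-coding gene beside *Hoxd1* and *Hoxd3*, was lower in iNP (-0.67 ± 0.15, adjusted p = 0.00253), iSP (-0.81 ± 0.31, adjusted p = 0.042) and iUB (-1.87 ± 0.15, adjusted p = 4.32e-06), the direction of *Hoxd1*. In iNP, *Hoxaas2* (1.80 ± 0.14, adjusted p = 3.41e-06) and *Hotairm1* (1.19 ± 0.17, adjusted p = 0.000212), both of the HoxA cluster, were higher.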

How the data were processed

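The 38 Hox genes, the gene lists and the comparisons were chosen with earlier results of these data known. Stranded mRNA reads were trimmed by the authors with Cutadapt and aligned with STAR, and edgeR was used for normalisation; the counting program and its strand setting are not given in the sources used here. The deposited values are a signal in normalised CPM, which the authors obtained by scaling CPM with edgeR factors. The genome is written as GRCh38, whereas the gene identifiers are mouse Ensembl identifiers; positions and exon overlaps come from GENCODE vM21 (GRCm38). The authors' table of comparisons was not used. Titles gave the groups and the replicate numbers. For the UB samples, the label for the source of the cells gives the opposite stage to the title and the cell type label, and the titles were used.

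Dividing each value by what 1 read was worth in its library gave whole numbers for 100% of values (tolerance 0.001), and so 13 to 52.5 M recovered reads per library (median 27.4 M). Limma 3.58.1 in R 4.3.3 (lmFit followed by trended eBayes) was applied to log2(value + 1) of genes reaching 1 in 4 or more libraries of a comparison, for 18 comparisons of 2 groups and 3 interactions, with Benjamini-Hochberg adjustment over all genes and a threshold of 0.05. Fold changes on this scale understate the change of genes with low values. The Hox9, Hox10 and Hox11 genes and *Hoxb7* are given whatever their result, with up to 5 called genes of the largest size in each direction, and up to 4 genes of each list of other genes. Marker lists were given by their sums. Paraxial and early mesoderm markers spanned 774 to 856 in E11.5 NP and 551 to 606 in iNP, although 6 of the 8 tested were higher and 2 lower in iNP. Neural markers spanned 26.7 to 39.5 and 52.1 to 72.7 (5 higher and 1 lower of 7). Pluripotency markers spanned 29.7 to 47.6 in E11.5 UB and 119 to 166 in iUB. Only 2 of these 7 genes were tested there, both higher, and 4 were at or under 3 reads in all 4 iUB libraries. The same markers spanned 79.5 to 119.5 in E11.5 SP and 17.1 to 26.6 in iSP, although 3 of the 4 tested were higher and 1 lower in iSP. Alternatives were a pseudocount of 0.1, no filter, quantile and upper-quartile scaling, edgeR 4.0.16 on the recovered reads, 1 fit of all 36 libraries, the replicate number as a block, and each library left out. Added after the data were seen were the fits without replicates 1 and 2 of E11.5 SP and without replicate 1 of both E12.5 groups. Only E12.5 NP and SP deviated together by number (correlations 0.543 to 0.7 in the 4 pairs, each library best with its own number), so the block is given there. The steps were tested on simulated data. Summaries and plots were made in Python 3.11.15 with matplotlib 3.10.9, numpy 2.4.6, pandas 2.3.3 and scipy 1.17.1.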

Additional observations from a re-analysis of the deposited data

Results flagged for a closer look

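In 38 of 290 sets of 4 libraries (a Hox gene in a group, with a mean of at least 1), 1 library lay far from the other 3; chance alone gives about 1 in 20, or 14.5. Replicate 1 of E12.5 UB, the library with the high NP and SP marker sums, held 19 of them. It was the highest of its group for *Hoxa5* (34.4), *Hoxa6* (8.76), *Hoxa7* (18.9), *Hoxa10* (65.7), *Hoxa11* (33.9), *Hoxc4* (18.3), *Hoxc5* (5.44), *Hoxc6* (10.2), *Hoxc8* (10.6), *Hoxc9* (22.6), *Hoxc10* (56.45), *Hoxc11* (10.07), *Hoxd10* (25.5) and *Hoxd12* (6.63). It was the lowest for *Hoxb2* (89.977), *Hoxb3* (97.2), *Hoxb8* (154), *Hoxd3* (7.29) and *Hoxd8* (73.7). Genes that are high in mesenchymal cells were thus high in this library and genes that are high in UB cells low.

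Replicate 1 of E11.5 NP was the highest of its group for *Hoxa4* (10.7), *Hoxa6* (13.1), *Hoxb4* (37.3), *Hoxb7* (13.6), *Hoxb9* (376) and *Hoxc4* (74.3). Replicate 1 of iNP was the lowest for *Hoxa9* (73.7) and *Hoxc8* (20.75) and the highest for *Hoxd13* (5.38), and replicate 2 of iNP the highest for *Hoxb7* (51.7) and *Hoxd8* (24.986). Replicate 1 of E12.5 SP was the highest for *Hoxd8* (16.954) and *Hoxd13* (8.94) and the lowest for *Hoxd12* (6.28). Single values far from their group were *Hoxa3* in replicate 2 of E12.5 NP (16.3), *Hoxa5* in replicate 1 (4.07) and *Hoxd3* in replicate 2 (9.0045) of E11.5 UB, *Hoxa9* in replicate 1 of iSP (59.8) and *Hoxd3* in replicate 1 of iUB (2.30).

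The change from E11.5 to mESC-derived cells went in opposite directions in a pair of cell types, with a called difference, for *Hoxc6* between NP and SP (1.06 on the log2 scale), for *Hoxa3* (-1.80), *Hoxd3* (-1.54), *Hoxb4* (0.87) and *Hoxb9* (1.15) between UB and NP, and for *Hoxb4* (1.70), *Hoxc4* (3.36) and *Hoxc6* (1.60) between UB and SP.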

How the results depend on the processing

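Over the 18 comparisons and 3 interactions, 446 pairs of a Hox gene and a comparison were called. Of 7330 values of these pairs under an alternative, 6711 kept direction and call, 617 kept direction but lost the call (397 of them with a library left out, 81 in the fit of all 36 libraries and 34 with edgeR), and 2 reversed: the difference of *Hoxd12* between the UB and NP comparisons, 0.78 as given, was -0.76 with a pseudocount of 0.1 and -5.52 with edgeR, its iUB libraries holding no read. Over all genes, edgeR on the recovered reads called 861 between the NP stages, the fewest, to 9402 between iSP and E11.5 SP, the most, where limma called 850 and 9411. Of 348 counts of called Hox genes under an alternative, 319 were within 1.5 times the count given. The fit of all 36 libraries called 13 between iNP and E11.5 NP, 17 between iNP and iSP, 10 for the NP and SP interaction and 11 for the UB and NP interaction, against 21, 26, 18 and 19. With single libraries left out, the count ranged from 11 to 19 for iNP against E12.5 NP (11 to 13 without replicate 3 or 4 of E12.5 NP or 1, 3 or 4 of iNP), from 1 to 11 between the NP stages (1 to 3 without replicate 2 or 3 of E11.5 NP or 3 or 4 of E12.5 NP, 11 without replicate 2 of E12.5 NP), from 2 to 8 between the SP stages (2 without replicate 1, 2 or 3 of E11.5 SP or 3 or 4 of E12.5 SP, 3 without replicate 2 of E12.5 SP) and from 5 to 19 between the UB stages (5 or 6 without any library other than replicate 1 of E12.5 UB, 19 without that one). Without replicates 1 and 2 of E11.5 SP it was 2 between the SP stages. Upper-quartile scaling called 8 (3 higher, 5 lower) between the NP stages, and it and quantile normalisation each called 8 (6 higher, 2 lower) between the UB stages. Upper-quartile scaling put the median log2 fold change of all genes between iUB and iNP at -0.115, from near 0 as given, and no other comparison moved by over 0.1 with either scaling. The replicate number as a block gave 27 instead of 20 between E12.5 NP and SP, where libraries of the same number deviated together. In no other comparison was the correlation over 0.1 in all 4 pairs, and the labels do not say whether same-numbered libraries share a pool. In those comparisons the block moved no count by more than 1.5 times. Without genes whose exons overlap another gene, the paralogues 9 to 13 supplied 62.8% of the summed level per kb in E11.5 NP, 52.3% in iNP, 58.8% in E11.5 SP, 44.7% in E12.5 SP, 64.0% in iSP, 20.7% in E11.5 UB and 22.85% in iUB. Levels of 3 reads or fewer limit what can be said of the 5' genes in iUB.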
